A study of Mus musculus with 6 samples.

Results

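A set of 31 genes of the lysosome was followed in mouse hearts that lack desmin, with and without cardiac overexpression of the cytokine TNF-α. They were picked by name for their role and are 31 of the 18193 genes measured. The set holds 8 cathepsins and related proteases, 7 glycosidases, 5 genes of lipid breakdown and its cofactors, 5 membrane proteins, 5 genes of the proton pump, and the transcription factor gene Tfeb.

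Lysosomes are acidic organelles that take in material from endocytosis and autophagy and break it down. A proton pump, the vacuolar ATPase, acidifies them, with a V1 part that splits ATP and a V0 part that sits in the membrane. Hydrolases in the lumen cut proteins, sugar chains and lipids, and heavily glycosylated proteins such as LAMP1 and LAMP2 line the inside of the membrane. TFEB and related factors bind short E-box motifs in many lysosomal promoters. In heart muscle the organelle is known for clearing glycogen and worn mitochondria, and inherited loss of Gaa or Lamp2 causes heart disease.

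Heart RNA was hybridised to 6 one-colour oligonucleotide arrays, 3 of the Des-/- and 3 of the TNFαDes-/- genotype. All mice carried the deletion of Des, whose product desmin is the chief intermediate filament protein of cardiac muscle, and were 3 months old. No array came from a heart with intact desmin. The question the design poses is what cardiac TNF-α overexpression adds to the desmin-null state.

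The Des-/- mice were of strain 129SV, and the TNFαDes-/- mice, which also carry a TNF-α transgene, were of a mixed 129SV and C57 background. Strain and transgene therefore cannot be told apart. The sources used here do not give the promoter that drives the transgene. The labels describe a pool of RNA from 3 hearts of each genotype, whereas the series text speaks of 3 mice per genotype. The arrays may thus be repeats of 1 pool, and the p-values reflect array-to-array spread alone, possibly a technical one. In whole-heart RNA, fewer cells of a type and less RNA per cell cannot be told apart.

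Several facts of the whole series bear on every value. The deposited arrays did not share 1 distribution, with a 99th percentile of the log2 signal of 12.3 on Des-/- replicate 1, 11.77 and 11.71 on replicates 2 and 3, and 12.31 to 12.34 on the TNFαDes-/- arrays. Over all genes, the SD of the log2 difference was 0.157 between Des-/- replicates 2 and 3 but 0.336 and 0.341 where replicate 1 was set against either, and the TNFαDes-/- arrays differed by 0.18 to 0.277. The log2 ratio of 3′ to 5′ control probe sets, a sign of RNA integrity, was -0.01 ± 0.03 for Gapdh in Des-/- and 0.32 ± 0.04 in TNFαDes-/- hearts (SD, n = 3), and 0.48 ± 0.08 against 0.73 ± 0.10 for Actb. Its part in the results was not tested. Tnf stood at 5.87 ± 0.09 in Des-/- and 5.94 ± 0.19 in TNFαDes-/- hearts (SD of log2 signals, n = 3), so the groups differed by 0.07 ± 0.12 (SE). Whether this probe set reads the transgene is not stated in the labels. Des, deleted in all mice, read 8.40 ± 0.06 and 8.79 ± 0.08 (SD, n = 3), brighter than 82.1% of genes, and was 0.39 ± 0.10 (SE) higher in TNFαDes-/- hearts (limma adjusted p = 0.0219). Where its probes lie relative to the deletion is not known, so neither gene checks the labels. All 10 cardiomyocyte markers were among the bright genes, with no value under 11.74 on any array.

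Promoters of 4 members that were higher in TNFαDes-/- hearts, and of Glb1, which did not pass the test, are shown because they hold the E-box CACGTG, the core of the site that TFEB recognises. Each is the 250 bases before the annotated start, from RefSeq on GRCm38.p6, on the gene's own strand and with E-boxes in capitals. The coordinates are chr7:142387828-142388077 (minus strand) for Ctsd, chr8:13158911-13159160 (plus) for Lamp1, chr8:3500269-3500518 (plus) for Mcoln1, chr11:119267713-119267962 (plus) for Gaa and chr9:114400828-114401077 (plus) for Glb1.
Ctsd: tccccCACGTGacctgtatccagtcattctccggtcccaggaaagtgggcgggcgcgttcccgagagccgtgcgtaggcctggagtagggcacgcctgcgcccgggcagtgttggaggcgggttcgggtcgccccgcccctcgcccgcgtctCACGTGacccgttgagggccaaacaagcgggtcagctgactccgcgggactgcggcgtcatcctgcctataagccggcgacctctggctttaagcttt
Lamp1: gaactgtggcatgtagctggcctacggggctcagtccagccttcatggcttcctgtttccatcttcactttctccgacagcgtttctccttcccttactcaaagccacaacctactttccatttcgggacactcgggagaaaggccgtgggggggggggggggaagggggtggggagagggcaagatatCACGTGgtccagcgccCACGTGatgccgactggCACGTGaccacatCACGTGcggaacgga
Mcoln1: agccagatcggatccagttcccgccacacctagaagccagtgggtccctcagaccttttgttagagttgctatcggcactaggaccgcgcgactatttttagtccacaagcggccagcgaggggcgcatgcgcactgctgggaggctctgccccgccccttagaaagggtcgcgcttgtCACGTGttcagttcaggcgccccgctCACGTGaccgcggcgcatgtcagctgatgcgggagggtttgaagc
Gaa: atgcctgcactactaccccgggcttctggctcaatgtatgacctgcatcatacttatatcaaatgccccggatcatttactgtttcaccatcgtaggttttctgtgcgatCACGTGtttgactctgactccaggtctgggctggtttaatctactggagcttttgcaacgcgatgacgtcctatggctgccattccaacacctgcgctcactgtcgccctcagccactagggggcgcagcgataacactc
Glb1: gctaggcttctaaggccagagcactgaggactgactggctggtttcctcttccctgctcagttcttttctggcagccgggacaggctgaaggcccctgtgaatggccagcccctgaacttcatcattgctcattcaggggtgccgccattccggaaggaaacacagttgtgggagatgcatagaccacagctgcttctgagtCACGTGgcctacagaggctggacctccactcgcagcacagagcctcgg
Counted back from the start, with the base before it as -1, the E-boxes of Lamp1 begin at -61, -45, -28 and -15, those of Mcoln1 at -71 and -45, and those of Ctsd at -245 and -98. Gaa has 1 at -140 and Glb1 has 1 at -48.

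Promoter windows from 250 bases before to 50 after the start were at hand for 25 of the 31 members. The motif reads the same on both strands. It was present in 10 of the 25 (40%), against 8.09% of all 27025 genes with a window (a gene can have several) and 7.15% of the 32851 windows. The longer palindrome TCACGTGA, which contains it, was present in 6 of the 25 (24%), against 1.12% of genes and 0.974% of windows. Of the 7 members with a window that were higher in TNFαDes-/- hearts as deposited, 6 held CACGTG, and of the 18 others 4 did. Ctsa held it only in the window of a start inside the gene and not in that at its annotated edge. Whether the motif goes with the change was not tested. A match is a description of these letters and not a measured binding site. Windows of Asah1, Atp6v1b2, Atp6v1h, Ctsb, Ctsh and Npc1 were not analysed here, and of these Asah1, Atp6v1h and Ctsh were higher as deposited.

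On the values as deposited, 10 of the 31 members (32.3%) were higher in TNFαDes-/- hearts and 0 were lower (limma adjusted p under 0.05). Across all genes 15.2% were higher and 6.05% lower. The 10 were the proteases Ctsa, Ctsd and Ctsh, the glycosidase Gaa, the ceramidase Asah1, the membrane proteins Lamp1 and Mcoln1, and the pump genes Atp6v1h, Atp6v0d1 and Atp6ap1. Only Atp6v1h reached a 2-fold difference. The median log2 change over the 31 was 0.17, against 0.04 over all genes. The groups of arrays did not overlap for 14 members that were higher (45.2%, against 24.3% of all genes) and for 2 that were lower, Atp6v1b2 and Tfeb (13.7% of all genes).

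These counts have to be read against brightness. The probe sets of 23 of the 31 members lay in the brightest 20% of genes, where 31.2% of all genes were higher as deposited and the median log2 change was 0.27. Of the 23 members, 8 were higher (34.8%). The members' share was thus near that of other bright genes. When all arrays were forced onto 1 distribution by quantile normalization, 7 members remained higher (22.6%, with 12.0% of all genes) and 8 were lower (25.8%, with 10.4% of all genes), and the median log2 change was -0.04. In the brightest 20% this scaling called 19.8% of genes higher and 17.4% lower, with 5 and 7 of the members. Ctsa, Ctsd, Ctsh, Lamp1, Mcoln1, Atp6v1h and Atp6v0d1 were higher under both scalings. Gaa, Asah1 and Atp6ap1 were higher as deposited only, and Ctsb, Ctsc, Ctsl, Ctsz, Psap, Scarb2, Atp6v1b2 and Tfeb were lower after quantile normalization only.

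**Figure D1:**
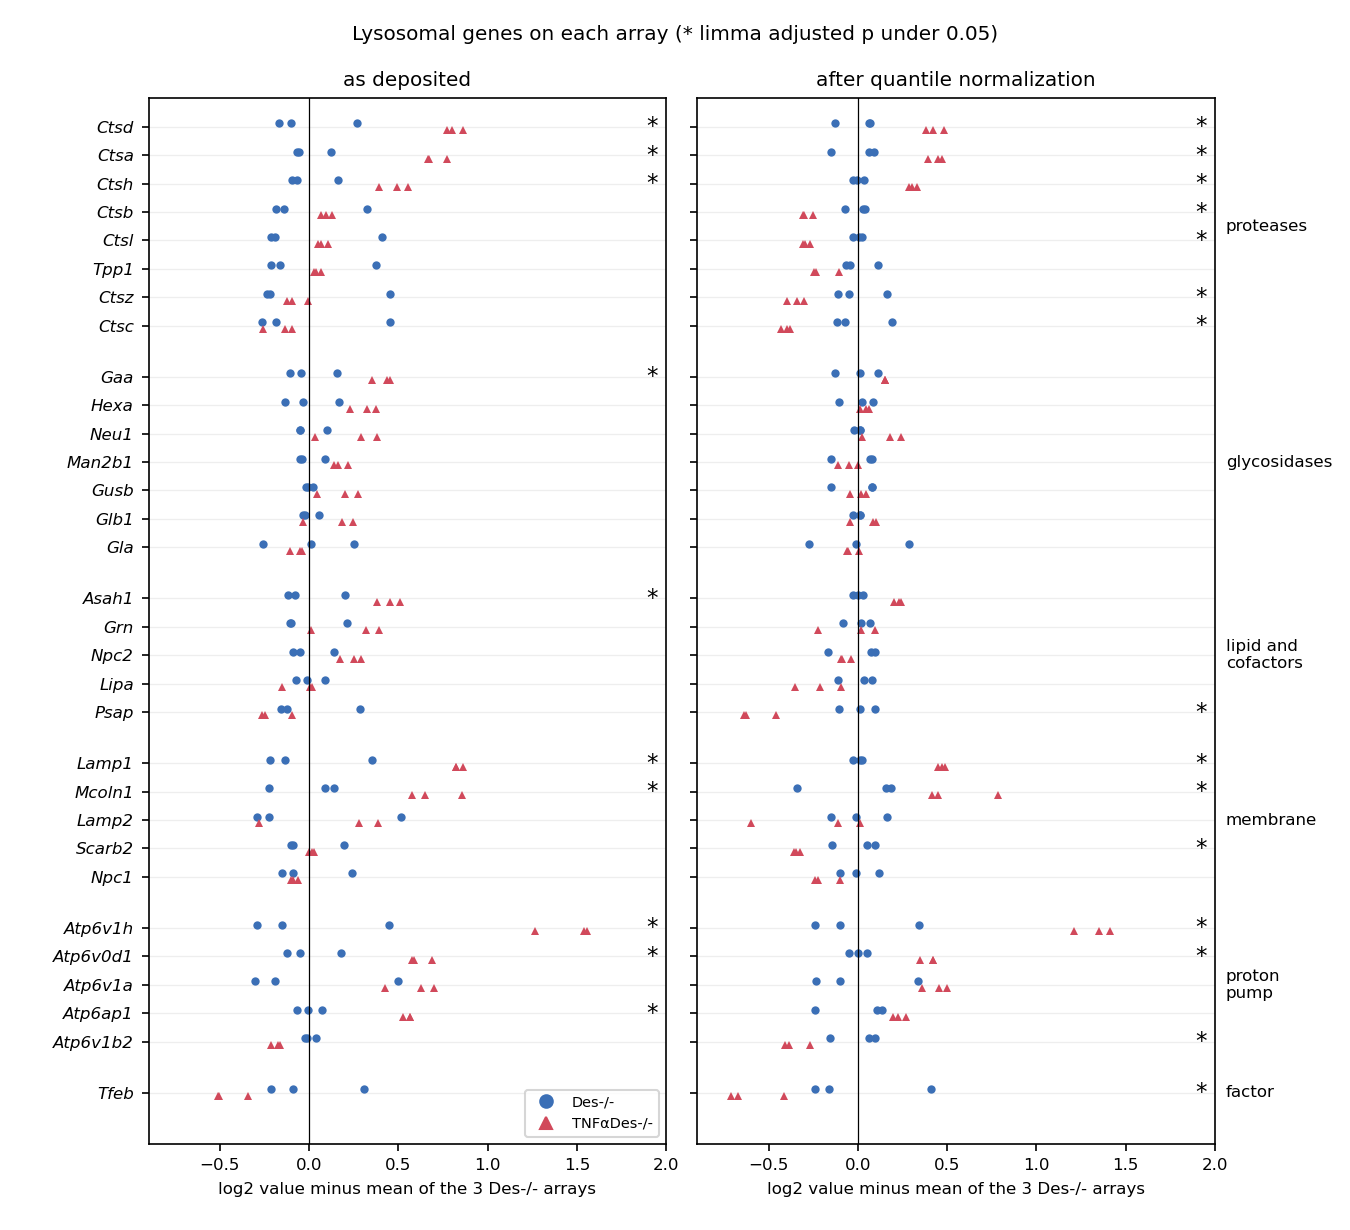
Log2 signal of the 31 genes on each of the 6 arrays minus the mean of the 3 Des-/- arrays, as deposited (left) and after quantile normalization (right), with Des-/- arrays as circles, TNFαDes-/- arrays as triangles and stars where limma's adjusted p is under 0.05. For Ctsd, Ctsa, Lamp1 and Atp6v1h every triangle lies right of every circle in both panels, while for Ctsb and Ctsl as deposited Des-/- replicate 1 lies right of the TNFαDes-/- arrays and replicates 2 and 3 left of them.

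**Figure D2:**
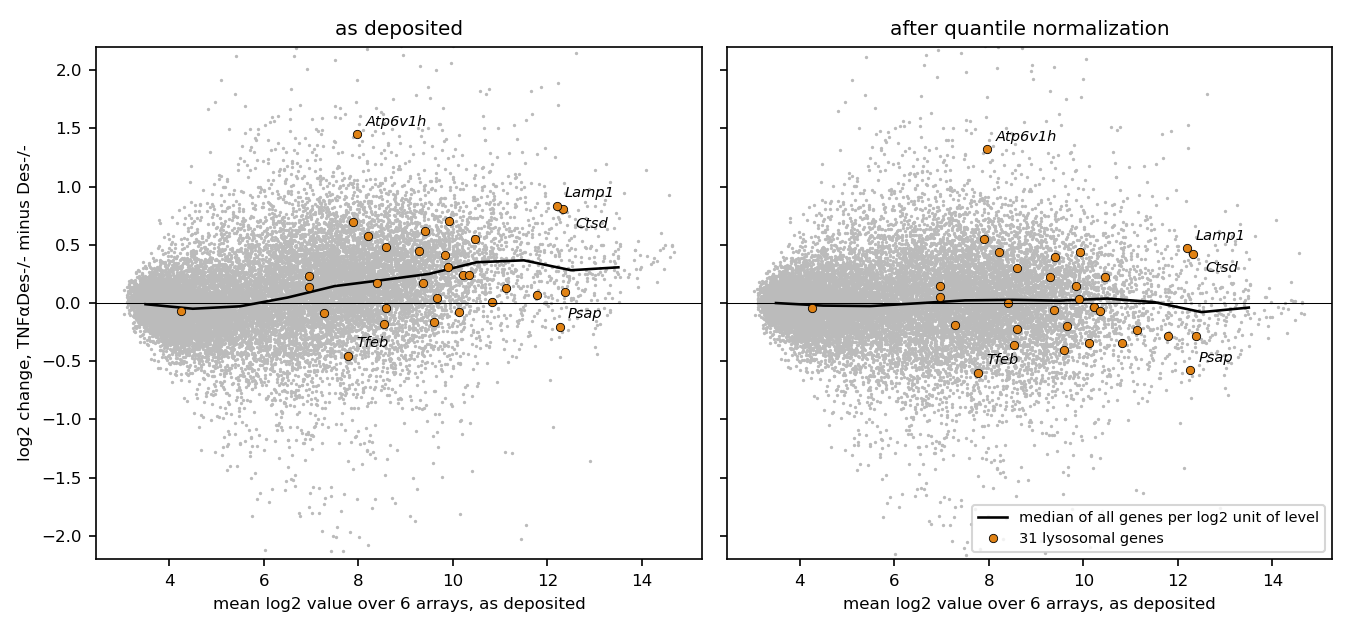
Log2 change (TNFαDes-/- minus Des-/-) against mean log2 signal for all genes in grey and the 31 genes in orange, as deposited (left) and after quantile normalization (right), with a line at the median of all genes in each log2 unit of signal that held at least 20 genes and genes beyond the axis limits not drawn. As deposited the median climbs at the bright end, where most of the 31 lie, and after quantile normalization it stays near 0.

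Among the proteases, 3 of 8 were higher and the other 5 were spread around 0. Ctsd encodes cathepsin D, the main aspartic protease of lysosomes. Its log2 signal was 12.19, 11.82 and 11.75 on the Des-/- arrays and 12.72, 12.78 and 12.69 on the TNFαDes-/- arrays. The groups did not overlap, and the change was 0.81 ± 0.13 (SE), or 1.75-fold (limma adjusted p = 0.00323). Ctsa encodes cathepsin A, a carboxypeptidase that also protects β-galactosidase and neuraminidase. It stood at 9.70, 9.52 and 9.51 against 10.25, 10.24 and 10.35, a change of 0.70 ± 0.10, or 1.63-fold (limma adjusted p = 0.00205). The 3 TNFαDes-/- values lay close together and all above the Des-/- values. The other, dimmer probe set of Ctsa gave -0.12, and the mean of both did not pass (0.29, adjusted p = 0.0564).

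Ctsh encodes cathepsin H, a cysteine protease that trims peptides from their amino end. Its signal was 8.52, 8.26 and 8.29 in Des-/- and 8.85, 8.75 and 8.91 in TNFαDes-/- hearts, a change of 0.48 ± 0.11 (limma adjusted p = 0.0154). All its probe sets were higher by the test over probe sets. The call was lost without Des-/- replicate 2 or 3 or TNFαDes-/- replicate 1 or 3.

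The cysteine cathepsins B and L, among the brightest members, had a different pattern. Ctsb read 12.66, 12.19 and 12.15 on the Des-/- arrays and 12.43, 12.40 and 12.46 on the others. Des-/- replicate 1 was the highest of the 6 and the other pair the lowest, so the groups overlapped and the change was 0.10 ± 0.14 (limma adjusted p = 0.691). Ctsl did the same, with 12.15, 11.55 and 11.53 against 11.81, 11.79 and 11.85. After quantile normalization both fell, Ctsb by 0.28 and Ctsl by 0.29 in log2 units (limma adjusted p = 0.0376 and 0.0295). As deposited but without Des-/- replicate 1, both changes were positive. Ctsl was then called higher, at 0.275, and Ctsb did not pass, at 0.257 (limma adjusted p = 0.0523). The direction of both thus depended on the setting. A dimmer probe set of Ctsb fell as deposited too, by 0.49 on the log2 scale (adjusted p = 0.0101 over all probe sets), while the 4 others did not pass. Ctsc, which activates granule proteases, stood at -0.17 and Ctsz, a carboxypeptidase, at -0.08 without passing. After quantile normalization they fell by 0.40 and 0.34 on the log2 scale. Tpp1, the tripeptidyl peptidase lost in a childhood neuronal storage disease, passed under neither scaling (0.05 and -0.19).

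Differences within an array do not depend on a shift common to all its genes, but can depend on one that varies with signal level. They were taken for pairs chosen after the values were seen, with no test. The log2 signal of Ctsd minus that of Ctsb was -0.47, -0.37 and -0.40 on the Des-/- arrays and 0.30, 0.38 and 0.23 on the TNFαDes-/- arrays. This is a shift of 0.71 in the balance of the cathepsins D and B, and it was 0.71 after quantile normalization as well. Des-/- replicate 1, which stood apart in signal, did not stand apart for this pair. It did for Ctsa minus Ctsz, which read -0.92, -0.41 and -0.44 on the Des-/- and 0.09, 0.20 and 0.28 on the TNFαDes-/- arrays, a shift of 0.78 under both scalings. The groups of both pairs did not overlap. Ctsd shifted by 1.01 relative to Psap as deposited. Such a shift shows unequal change and not that either gene of a pair was steady.

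**Figure D3:**
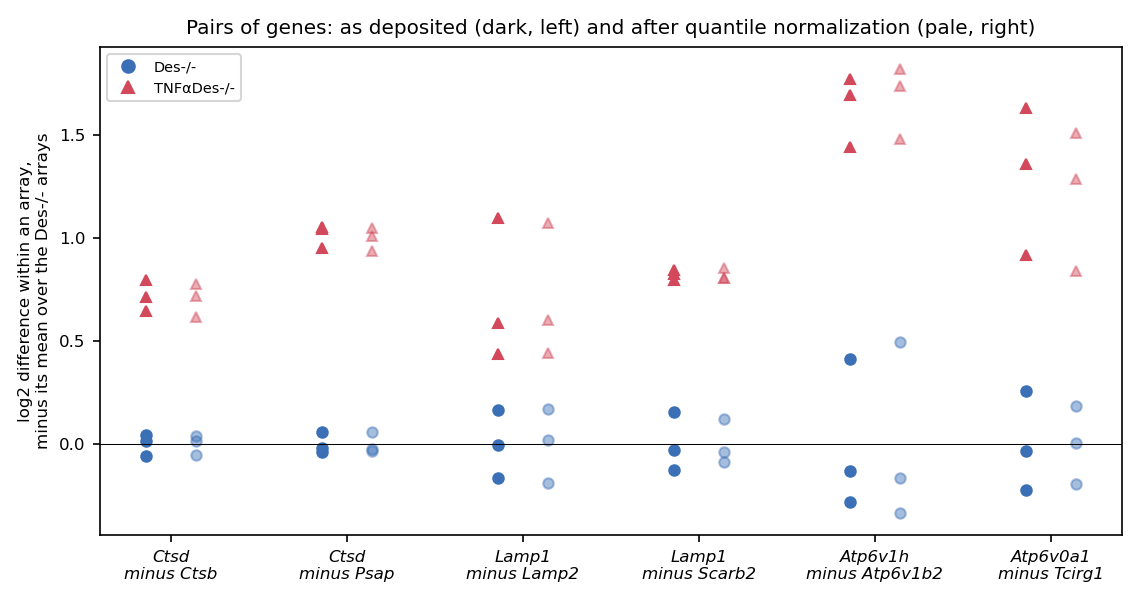
Log2 signal of 1 gene minus that of another on the same array, for 6 pairs of lysosomal genes, set to 0 at the mean of the 3 Des-/- arrays (circles) and shown for the 3 TNFαDes-/- arrays as triangles, as deposited (dark) and after quantile normalization (pale). In every pair drawn all TNFαDes-/- points lie above all Des-/- points under both scalings.

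Glycosidases cut sugars from glycogen, glycolipids and glycoproteins. Gaa, the acid α-glucosidase that degrades lysosomal glycogen, was the only 1 of 7 to pass. It read 9.78, 9.52 and 9.58 in Des-/- and 10.06, 9.98 and 10.08 in TNFαDes-/- hearts, a change of 0.41 ± 0.10, or 1.33-fold (limma adjusted p = 0.0238). Its groups did not overlap and all its probe sets were higher, but the change was 0.15 after quantile normalization (adjusted p = 0.283). Its call was likewise lost without Des-/- replicate 2 or 3 or TNFαDes-/- replicate 1 or 3. Hexa, a subunit of β-hexosaminidase, came next with 0.31 ± 0.11 (adjusted p = 0.0796). Neu1, the lysosomal neuraminidase, gave 0.23, Gusb (β-glucuronidase) and Man2b1 (α-mannosidase) 0.17 each, and Glb1 (β-galactosidase) 0.13, none past the test. Gla, the α-galactosidase, lay below the median of each array on all 6, so no fold is given for it. After quantile normalization 0 glycosidases passed in either direction, at a median of 0.04.

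Of the 5 genes of lipid breakdown, Asah1, the acid ceramidase that splits ceramide into sphingosine and fatty acid, passed. It read 9.27, 8.99 and 8.95 against 9.52, 9.45 and 9.58, a change of 0.44 ± 0.12 (limma adjusted p = 0.0261). After quantile normalization it was 0.22 (adjusted p = 0.0732), and the call was lost on leaving out any array but Des-/- replicate 1 and TNFαDes-/- replicate 2. Psap encodes prosaposin, the precursor of the small proteins that present sphingolipids to their hydrolases. It stood at 12.64, 12.20 and 12.23 against 12.11, 12.26 and 12.09 and did not pass as deposited (-0.20 ± 0.14). After quantile normalization it had the lowest p of the members that fell, at -0.57 (limma adjusted p = 0.00361). As deposited, the other probe set of Psap gave 0.15, so its probe sets differ in sign. Npc2, the soluble cholesterol carrier, gave 0.24, Lipa, the acid lipase, -0.04, and Grn, which encodes progranulin, 0.24, none past the test. A further probe set of Grn was higher by 0.52 (adjusted p = 0.00889 over all probe sets).

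Of the 5 membrane proteins, Lamp1 and Mcoln1 were higher under both scalings. Lamp1, one of the most abundant proteins of the lysosomal membrane, stood at 12.13, 11.64 and 11.56 in Des-/- and at 12.64, 12.60 and 12.60 in TNFαDes-/- hearts. The change was 0.84 ± 0.15, or 1.79-fold (limma adjusted p = 0.00583), and 0.47 after quantile normalization (adjusted p = 0.00333). Mcoln1, a calcium-releasing cation channel of the lysosome, read 7.32, 7.68 and 7.63 against 8.12, 8.40 and 8.19. It is the only one of the 31 in which Des-/- replicate 1 was the lowest of its group, and the change was 0.70 ± 0.13, or 1.62-fold (adjusted p = 0.00679). It was 0.55 after quantile normalization (adjusted p = 0.0451), and 0.37 (adjusted p = 0.0711) when that was run without Des-/- replicate 1.

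The remaining membrane proteins did not pass as deposited. Lamp2, which is needed for autophagosome fusion and chaperone-mediated autophagy, read 11.58, 10.77 and 10.84 against 11.34, 10.78 and 11.45, with wide and overlapping groups (0.13 ± 0.24). Its probe sets ran from -0.38 to 0.39. Scarb2, the receptor that carries glucocerebrosidase to lysosomes, gave 0.01 as deposited and fell by 0.35 after quantile normalization (adjusted p = 0.0293). Npc1, the membrane cholesterol transporter, gave -0.08. Within an array, Lamp1 shifted by 0.71 relative to Lamp2 and by 0.82 relative to Scarb2 under both scalings.

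Among the classes of members the pump had the highest median change, 0.58 as deposited and 0.39 after quantile normalization. Of its 5 members 3 were higher as deposited. The 16 further pump genes measured had lower medians, 0.27 as deposited and 0.017 after quantile normalization. Atp6v1h encodes the H subunit of the V1 part, which joins it to V0 and regulates its activity. Its signal was 7.69, 7.09 and 6.95 on the Des-/- arrays and 8.80, 8.51 and 8.78 on the TNFαDes-/- arrays. The lowest TNFαDes-/- array was well above the highest Des-/- array. The change was 1.45 ± 0.19, or 2.73-fold (limma adjusted p = 0.00128), and 1.32, or 2.50-fold, after quantile normalization. It passed in all 18 alternative settings, with changes of 0.54 to 1.69 and adjusted p up to 0.0354. The 0.54 is the mean of 3 probe sets, of which the 2 others are dim and gave 0.24 and -0.08.

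Atp6v0d1 encodes the widely expressed d subunit of V0, and Atp6ap1 an accessory protein needed for its assembly. Atp6v0d1 read 9.28, 9.05 and 8.98 against 9.69, 9.68 and 9.79, a change of 0.62 ± 0.11, or 1.54-fold (limma adjusted p = 0.00552), and 0.39 after quantile normalization (adjusted p = 0.00945). Atp6ap1 read 10.26, 10.18 and 10.12 against 10.71, 10.75 and 10.75, a change of 0.55 ± 0.09 (adjusted p = 0.00425), with the tightest groups of the 3. After quantile normalization it was 0.23 and did not pass (adjusted p = 0.193).

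The A and B subunits form the catalytic core of V1, and neither passed as deposited. Atp6v1a, the A subunit, read 8.42, 7.62 and 7.73 against 8.55, 8.35 and 8.62. Des-/- replicate 1 lay among the TNFαDes-/- arrays, the change was 0.58 ± 0.20 (adjusted p = 0.0726), and without that array it was 0.83 and passed (adjusted p = 0.00158). Atp6v1b2, the B subunit that pairs with A, read 8.66, 8.60 and 8.61 against 8.41, 8.45 and 8.46. Its groups did not overlap in the lower direction, with -0.18 ± 0.09 as deposited (adjusted p = 0.192), and it fell by 0.36 on the log2 scale after quantile normalization (adjusted p = 0.0326). Within an array the H subunit minus B2 read -0.97, -1.51 and -1.66 on the Des-/- arrays and 0.39, 0.06 and 0.31 on the others, a shift of 1.63 (1.68 after quantile normalization). Des-/- replicate 1 stood apart here too, though below every TNFαDes-/- array.

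Tfeb, the regulator among the members, had the most negative change of the 31 as deposited. It read 7.91, 7.79 and 8.31 in Des-/- and 7.49, 7.66 and 7.50 in TNFαDes-/- hearts, without overlap. The change of -0.45 ± 0.14 missed the threshold (limma adjusted p = 0.0557) and was -0.60 after quantile normalization, where it passed (adjusted p = 0.0393). It also passed in the lower direction with an intensity trend, with array weights, when dim probe sets were filtered out and without Des-/- replicate 1. It did not pass when any other single array was left out, and the change was -0.30 without Des-/- replicate 3. These values are levels of its mRNA. The arrays do not measure where the protein sits, which is known to set its activity.

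Across probe sets, the 31 genes had 70, of which 14 were higher and 1 lower (11.7% and 5.62% over the 34945 probe sets with 1 gene symbol). Of the 10 called members 5 had 1 probe set. Of the 5 with several, Ctsh, Gaa and Mcoln1 had the same sign on all of them, and Ctsa and Atp6v1h did not, each through a dimmer probe set.

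Leaving out 1 array at a time moved the count of higher members between 7 and 14, and the share of all genes moved with it. The count was 14 (45.2%, with 23.4% of all genes), with Tfeb lower, without Des-/- replicate 1. It was 10 (32.3%, with 14.4% of all genes) without TNFαDes-/- replicate 2. Where it was 7 (22.6%), 8.11% to 8.82% of all genes were higher. Without Des-/- replicates 2 and 3 together, the median log2 change over the members was 0.081, against 0.038 over all genes. Des-/- replicate 1 is then the single array of its group, and its spread is assumed to be that of the other arrays.

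The wider lysosomal system was read from 7 lists of 118 further genes, of which 108 were measured. As deposited 24 were higher (22.2%, against 15.2% of all genes) and 7 lower (6.48%, against 6.05%), at a median log2 change of 0.19. After quantile normalization 13 were higher (12.0%, as over all genes) and 17 lower (15.7%, against 10.4%), at a median of 0.06. The share of lower genes as deposited and that of higher genes after quantile normalization were at the background of all genes. The share of higher genes as deposited was above that background but below the 31.2% of the brightest 20% of genes. Likewise, the share of lower genes after quantile normalization was below the 17.4% of the brightest 20%. The 108 genes were not compared with genes of like brightness. In all, 13 higher and 7 lower genes were shared by both scalings, with 0 opposite calls. The count of higher genes was 43 (39.8%, with 23.4% of all genes) without Des-/- replicate 1. It was 15 (13.9%, with 8.82% of all genes) without Des-/- replicate 2. As deposited, 5 of the 7 lists held both higher and lower genes. The shares over all genes given here are also the background for the counts of each list below.

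Of 16 further pump genes 5 rose and 2 fell as deposited (2 and 3 after quantile normalization). Atp6v0e2 (0.69), Atp6v0a1 (0.60) and Atp6v0b (0.59), all parts of V0, rose as deposited, and the Atp6v0b call was lost after quantile normalization. For Atp6v0a1 the mean of all probe sets gave 0.14 and did not pass (adjusted p = 0.355). Atp6v0d2, the d subunit isoform of osteoclasts and macrophages, fell. It read 6.90, 6.80 and 6.34 in Des-/- and 4.82, 5.11 and 4.61 in TNFαDes-/- hearts (limma adjusted p = 0.000309). Since the latter lie near or below the array medians of 5.02 to 5.08, no size is given for the fall. Tcirg1, the a3 subunit isoform known from osteoclasts, fell by 0.70 in log2 units, a call lost without Des-/- replicate 2 or 3 or TNFαDes-/- replicate 1 or 2 (limma adjusted p up to 0.357 over its alternatives). Within an array, Atp6v0a1 shifted by 1.30 relative to Tcirg1 (1.21 after quantile normalization). As deposited and on the brightest probe sets, 1 isoform rose and another fell for the a and for the d subunit. For the a subunit this holds only within the limits given for Atp6v0a1 and Tcirg1.

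**Figure D4:**
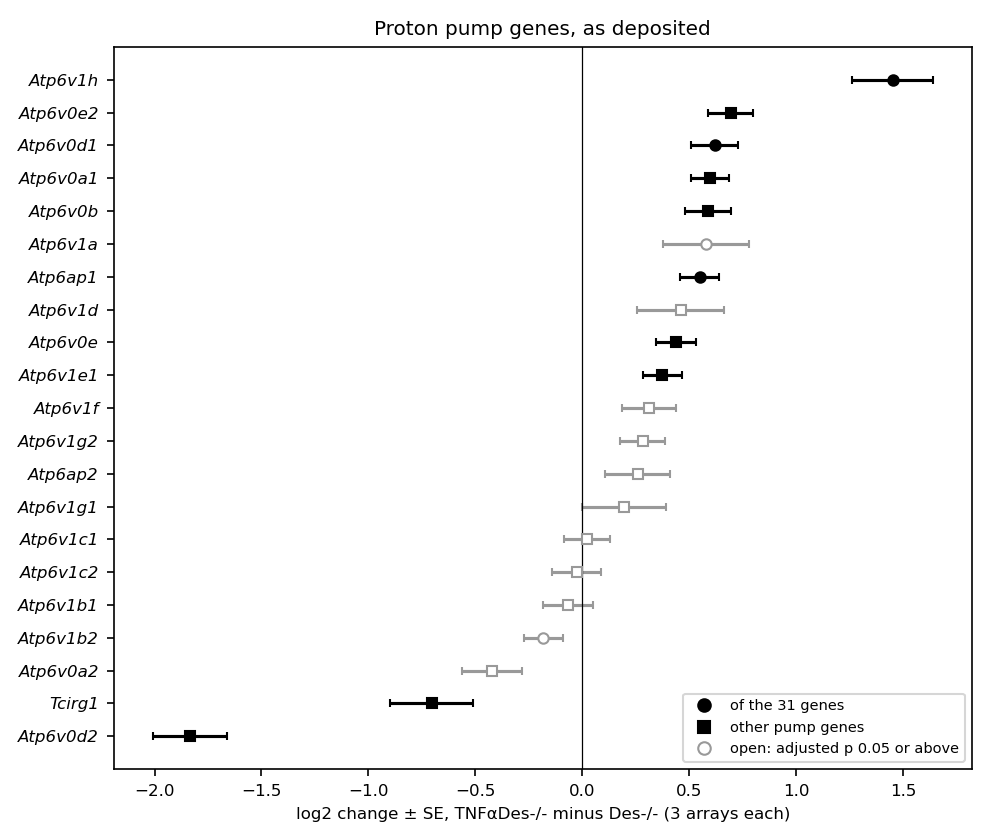
Log2 change with its SE for the genes of the vacuolar ATPase, as deposited and ordered by the change, with circles for the 5 pump members, squares for the 16 further genes and open symbols where limma's adjusted p is 0.05 or above. Atp6v1h lies at 1.45, the highest, and Atp6v0d2 the lowest, at a point whose distance from 0 is uncertain because its TNFαDes-/- signal is near or below the array medians.

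Of 17 further glycosidases and sulfatases 4 rose and 0 fell as deposited (3 and 1 after quantile normalization), among them Aga (0.76), which splits sugar chains from asparagine, Man2b2 (0.65), a mannosidase, and Arsa (0.60), the arylsulfatase that degrades sulfatide. Of 11 genes on a list of lipases, phosphatases, nucleases and cofactors 2 rose and 1 fell (2 and 4 after quantile normalization). Nagk (0.75), an amino sugar kinase listed with them though it is none of these, and Plbd2 (0.66) rose. Acp5, the tartrate-resistant acid phosphatase of osteoclasts and macrophages, fell by 1.26 on the log2 scale. Of 9 further proteases 1 rose and 2 fell (1 and 3 after quantile normalization). Dpp7 (0.79), a dipeptidyl peptidase, rose, while Ctsk and Ctss, the cathepsins K and S, fell by 1.21 and 0.80 on the log2 scale. Each of these calls except those of Aga, Man2b2, Arsa and Plbd2 held in all alternatives, and these 4 were lost only without Des-/- replicates 2 and 3.

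Among 21 further membrane proteins 4 rose and 1 fell (2 and 3 after quantile normalization). Tmem192 (0.92) and Ostm1 (0.66), a partner of the chloride exchanger of lysosomes, rose in all alternatives. Laptm4a (0.50) did not pass after quantile normalization or with an intensity trend. Its call was also lost on leaving out any array but Des-/- replicate 1. Cd68, a LAMP family member of macrophages, fell by 1.48 on the log2 scale. Of 17 genes that sort enzymes to lysosomes, Vps41 (0.46) and Vps26a (0.35) rose as deposited while after quantile normalization 0 rose and 2 fell. The Vps41 call was lost without Des-/- replicate 2. That of Vps26a was lost without Des-/- replicate 2 or 3 or TNFαDes-/- replicate 1 or 3. Of 17 genes of the TFEB family and of mTORC1 at the lysosome 6 rose and 1 fell (3 and 1 after quantile normalization). Lamtor3 (0.75), a part of the Ragulator scaffold, and the GTPase gene Rragd (0.75) rose, and Mitf, a relative of Tfeb, fell by 0.58 on the log2 scale. The Mitf call was lost without any 1 of the TNFαDes-/- arrays. Averaging all probe sets of a gene ended the calls of Mitf and Rragd. Zkscan3, a factor described as a repressor of lysosomal genes, rose by 0.88, but the mean of its probe sets did not pass (limma adjusted p = 0.411). Over the alternatives its change ran from -0.90 to 0.93, with the sign reversed in 1 of them, so its direction depended on the setting.

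Markers of cell types of the heart were read beside these genes. Over all genes, 15.2% were higher and 6.05% lower as deposited, and 12.0% and 10.4% after quantile normalization. Of 24 macrophage markers 11 were higher and 6 lower as deposited (10 and 8 after quantile normalization). Their summed signal on a linear scale ran from 14500 to 19500 in Des-/- and from 16600 to 17200 in TNFαDes-/- hearts. The 4 named here were picked by the size of their change. Most of them fell, whereas most of the called markers rose. Cd14 rose by 1.75 and Gpnmb changed by -3.93 (-1.94 in the alternative with the smallest fall). Mmp12 and Itgax fell too, to 4.35, 4.74 and 4.57 and to 4.99, 5.44 and 5.35 on the TNFαDes-/- arrays. These values lie below or near the array medians, so no size is given. Cd68 is on this list as well as on the lysosomal one. The markers Itgam and Cx3cr1 lay below the median of each array on all 6. The higher macrophage markers numbered 4 or 5 without any 1 of Des-/- replicates 2 and 3 and TNFαDes-/- replicates 1 and 3, with 6 lower in each case. In these runs 8.11% to 8.82% of all genes were higher and 3.06% to 3.63% lower.

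Of 10 cardiomyocyte markers 0 passed as deposited in either direction, 8 were higher without Des-/- replicate 1 and 3 were lower after quantile normalization. Their summed signal ran from 132000 to 212000 in Des-/- and from 199000 to 204000 in TNFαDes-/- hearts. Of 8 fibroblast markers 2 were higher (1 higher and 4 lower after quantile normalization), with sums of 16300 to 24700 against 25500 to 26300. Of 8 endothelial markers 3 were lower (5 after quantile normalization), with sums of 3960 to 4950 against 3680 to 3780. Of 7 lymphocyte markers Ighm alone was higher (1.30, but -0.08 as the mean of its probe sets), with sums of 302 to 320 against 469 to 520, and 4 of the 7 were below the median on all arrays. What part these cell types have in the lysosomal values was not tested.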

How the data were processed

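The values deposited by the authors are log2 signals of 45101 probe sets on 6 one-colour arrays, made with RMA (no version given) per the submitters' processing notes. The sources used here do not say whether all arrays were quantile normalized together. The depth of an array is its number of probe sets and arrays, and 3 arrays per group limit the precision. Of the probe sets, 64 are controls, 34945 have 1 gene symbol in the platform annotation, 932 several and 9160 none, and the last 2 kinds were left out. Gene identifiers of 34741 were matched to the RefSeq table of GRCm38.p6, which changed 0 symbols.

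Where a gene had several probe sets, the one with the brightest 6-array mean stood for it, and dim probe sets were kept. Groups came from the sample titles. The test was limma's moderated one (lmFit and eBayes, limma 3.58.1, R 4.3.3), with p-values adjusted by Benjamini-Hochberg across the 18193 genes and called under 0.05. Each change is TNFαDes-/- minus Des-/- on the log2 scale. The fit was tested on simulated data. Alternatives covered scaling, filters, probe set choice, array weights, the replicate block and arrays left out. Quantile normalization without Des-/- replicate 1, and Des-/- replicates 2 and 3 left out together, were chosen after seeing the data. All members were named, with up to 3 called genes in each direction of each further lysosomal list and up to 4 of each cell type list. The members and lists were chosen with earlier results of these data known. Promoter sequences were those of the RefSeq promoter table, and figures were drawn with matplotlib 3.10.9.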

Additional observations from a re-analysis of the deposited data

How the results depend on the processing

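The scaling of arrays set the balance of the calls. After quantile normalization 8 members were lower, at a median of -0.036, with Ctsb at -0.28, Ctsl at -0.29 and Scarb2 at -0.35, and 13 of the further lysosomal genes were higher and 17 lower. Cyclic loess gave 8 lower members and a median of -0.04, with Ctsb and Ctsl at -0.30 and Scarb2 at -0.31. Quantile normalization without Des-/- replicate 1 gave 7 lower members, with 13.5% of all genes lower. The median over members was then -0.072, with Ctsb at -0.32, Ctsl at -0.28 and Scarb2 at -0.42. Without that array but as deposited, Ctsb stood at 0.257 and Ctsl at 0.275, and Ctsl was called higher. With array weights 17 members were higher (54.8%, with 30.2% of all genes). The number of lower members was 1 with the intensity trend, array weights, the dim filter or the mean of all probe sets. In the same order, 6.13%, 16%, 8.39% and 6.26% of all genes were lower. With Des-/- replicates 2 and 3 left out, the median over members was 0.081, against 0.038 over all genes. Leaving out 1 array at a time gave 7 to 14 higher and 0 to 1 lower members, and 15 to 43 higher further lysosomal genes. In the same runs 8.11% to 23.4% of all genes were higher. Deviations of arrays with the same number correlated at 0.248, 0.313 and -0.299, so the numbers were not taken as pairs. A replicate block gave 11 higher members (35.5%, with 16.7% of all genes) and 1 lower, with Atp6v1a (adjusted p = 0.02) and Tfeb (0.044) newly past limma's test. No detection calls were used, so dim genes such as Gla are not shown to be above background.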
